A study of Mus musculus with 8 samples.

Results

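Conventional Th1-like CD4 T cells of the mouse meninges were chosen from 2 replicates of sorted CD45+ CD3+ CD4+ cells in which gene expression, T-cell receptor (TCR) chains and hashtag antibodies were read from the same single cells. The mice of replicate 1 were Foxp3-GFP and those of replicate 2 B6.WT, with no treatment listed for either, and the labels give neither the age nor the number of animals in a replicate. A barcode belonged to a replicate when its hashtag (number 7 or 10) reached 10 counts and led the next tag by a factor of 5 or more. A further filter kept barcodes with 500 or more detected genes and less than 10% of UMIs (unique molecular identifiers, 1 per captured transcript) from mitochondrial genes. A member had no Foxp3 UMI, at least 1 UMI of at least 2 of Ccl5, Nkg7, Cxcr6, Tbx21 and Ifng, and no TCR contig that joins TRAV11 to TRAJ18, the invariant alpha chain of natural killer T (iNKT) cells. This gave 1998 members of 46977 barcodes, 739 of them in replicate 1 and 1259 in replicate 2. Genotype, library and Cell Ranger version change together between the replicates and cannot be told apart, and the labels do not say whether the replicates came from separate sorts.

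Th1 cells are CD4 helper T cells that make interferon-gamma, encoded by Ifng, under the transcription factor T-bet, encoded by Tbx21. They carry the chemokine receptors CXCR3 and, in tissues, CXCR6, and they release the chemokine CCL5. The border of the brain holds such cells at steady state, and interferon-gamma has been linked to social behaviour in mice. iNKT cells share T-bet, CXCR6 and interferon-gamma with Th1 cells but develop separately, under the transcription factor PLZF (Zbtb16), and many of them lack CD4.

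Members made up 739 of 1539 Foxp3-negative cells in replicate 1, or 48.0% (exact 95% interval 45.5 to 50.5). In replicate 2 they made up 1259 of 2961, or 42.5% (40.7 to 44.3), and the mean was 45.3% ± 3.89 (SD, n = 2). Intervals cover counting error only. The median member had 3001 UMIs in replicate 1 and 1701 in replicate 2, close to the 2801.5 and 1550.5 of the other Foxp3-negative cells. The share moved with depth: thinned to 1000 UMIs per cell before the marker rule it was 33.6%, and among cells with at least 1000 genes it was 52.3%. Just outside the rule lay 257 and 589 Foxp3-negative cells with 1 marker that were not iNKT cells, and just inside it 208 and 558 members with 2. Of the Foxp3-positive cells, left out by the rule, 36 of 122 (29.5%) and 126 of 452 (27.9%) also had 2 or more of the 5 markers. The libraries share 554 barcodes, of which 4 passed the filters in both and 1 was a member in both.

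The values of the 5 selection genes are a description, since they chose the cells. Ccl5, a chemokine that draws effector T cells, stood at 3259 CPM (UMIs of the gene per 1000000 summed UMIs) in the members of replicate 1 and at 1873 CPM in replicate 2. It was found in 84.0% and 74.2% of members. Nkg7, a cytotoxic granule protein, stood at 1182 and 1278 CPM, and the receptor gene Cxcr6 at 777 and 886 CPM. Tbx21 was lower, at 124 and 146 CPM, with a UMI in 35.6% and 24.6% of members. Ifng stood at 128 and 217 CPM, with a UMI in 23.7% and 24.4%. The most common combination was Ccl5 with Nkg7 and Cxcr6 and neither Tbx21 nor Ifng, in 28% and 23.7% of members. All 5 were held by 40 and 48 members.

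**Figure D1:**
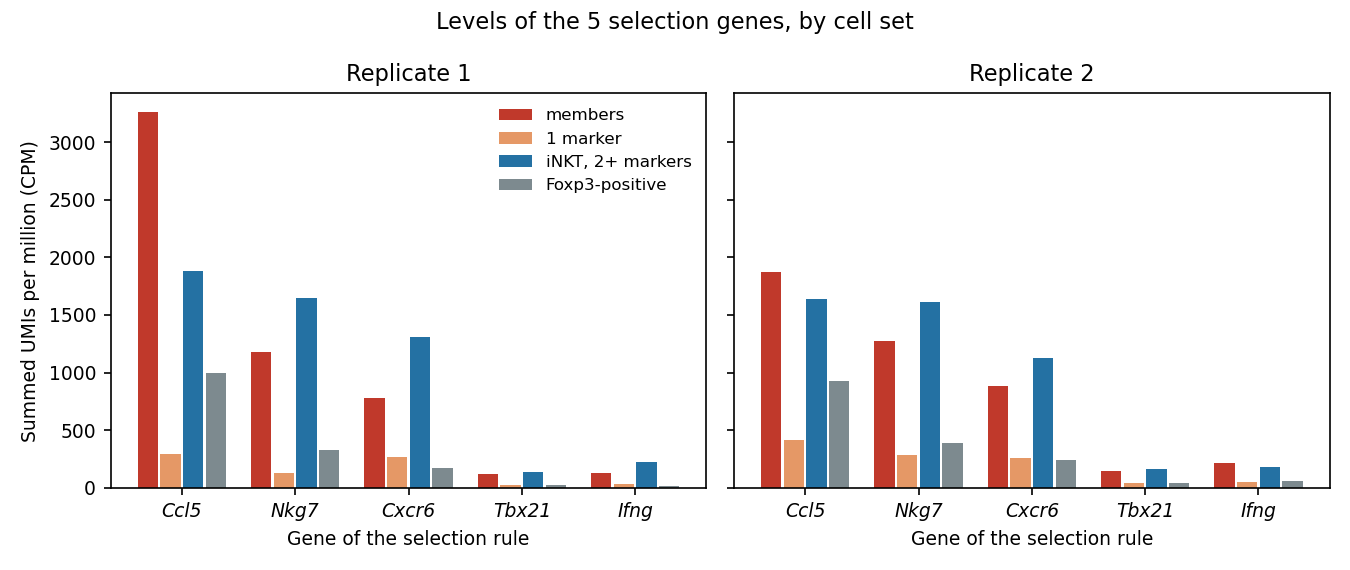
Bars give the CPM of the 5 selection genes (UMIs per 1000000 summed UMIs) in members, in Foxp3-negative cells with 1 marker, in iNKT cells with 2 or more markers and in Foxp3-positive cells, with 1 panel per replicate. Ccl5 was higher in members than in iNKT cells in both replicates, 3259 against 1882 and 1873 against 1636, while Nkg7 and Cxcr6 were higher in iNKT cells.

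The label was set against marker genes. Of the members, 98.8% and 96.5% held at least 2 of 7 T-cell genes. Cd4 stood at 211 and 204 CPM, with a UMI in 49.3% and 30.7% of members. At least 1 of 2 CD8 genes, Cd8a and Cd8b1, was found in 4.19% and 1.67% of members, and the pair summed to 31.4 and 8.4 CPM. Both were found in 0.677% of members of replicate 1, against 0.125% of its other Foxp3-negative cells, and in 0% of members of replicate 2. At least 1 of 5 natural killer genes (Ncr1, Eomes, Klrb1c, Klre1 and Gzma) was found in 8.53% and 9.93%, summing to 56.9 and 120 CPM, against 4.25% and 7.11% of the other Foxp3-negative cells, at 29.1 and 64.6 CPM. The gamma-delta TCR gene Trdc was found in 0.406% and 0.318% of members. Il17a, the cytokine gene of Th17 cells, stood at 2.99 CPM in replicate 1 and had no UMI in replicate 2, and Bcl6 of follicular helper cells stood at 2.62 and 6.8 CPM. Gata3, the factor of Th2 cells, stood at 88.7 and 73.6 CPM, with a UMI in 25.0% and 12.9% of members, and Rora, a factor of Th17 cells and of innate lymphoid cells, at 115 and 103 CPM. Eomes, a T-bet relative typical of CD8 and natural killer cells, stood at 12 and 8 CPM. Of the other Th1-linked genes, Cxcr3 was found in 75.8% and 51.0% of members at 465 and 428 CPM, and Stat4, which carries the interleukin 12 signal, at 77.5 and 140 CPM. Il12rb2, the receptor subunit that signals through Stat4, was low at 19.1 and 56.8 CPM. Il2 was found in 17.9% and 6.67% of members and Tnf in 14.5% and 13.1%, while the granule genes Gzmb, at 48.3 and 23.2 CPM, and Prf1, at 13.1 and 12.8 CPM, were low. Summed over 4 genes each, B-cell markers stood at 15.3 and 27.6 CPM in members, myeloid markers at 303 and 172 CPM and stromal markers at 172 and 28.4 CPM.

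RNA of other cell types was present in replicate 1. There, 10 genes of gut goblet and other epithelial cells (Mptx1, Muc2, Clca1, Ang4, Retnlb, Spink4, Klk1, Agr2, Sycn and Krt18), listed after their values were seen, summed to 12463 UMIs in the members, with at least 1 UMI in 68.9% of them. Of these UMIs 8196 lay in 1 cell, and in replicate 2 the members held 0. Likewise 6 fibroblast genes (Dcn, Gsn, Sparc, Col1a1, Col1a2 and Igfbp7) summed to 4730 UMIs in the members of replicate 1 and 82 in replicate 2. The libraries list 8 and 10 hashtags in all. The part of this RNA in the results below was not tested, except where values without the richest cell are given.

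Members were set beside the other Foxp3-negative cells of their replicate, 800 and 1702 cells, as log2 ratios of CPM + 1. The rule made this contrast, so no test is given, and a gene was called when it differed at least 2-fold in the same direction in both replicates at a mean of at least 50 CPM. Among 2964 genes 15 were called (0.506%), 1 higher (0.0337%) and 14 lower (0.472%). The other cells include the iNKT cells with 2 or more markers, 15% and 22.2% of them, which met the same marker rule as the members.

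Gzmk, the gene of granzyme K, a granule protease of effector memory T cells, was the 1 gene called higher. It stood at 222 CPM in members and 24.6 CPM in the other cells of replicate 1, and at 82.4 against 31.3 CPM in replicate 2. A UMI was found in 32.7% and 11.5% of members against 4.38% and 3.58% of the other cells. The mean log2 ratio was 2.25 ± 1.24 (SD, n = 2) and was larger in replicate 1. Against contrast cells with a TCR beta chain and no iNKT chain, Gzmk stood at 2.80 and 0.98 and missed the 2-fold threshold in replicate 2. In that contrast 34 genes were called, 19 of them higher, among them Xcl1 at a mean of 4.11, Ctsw at 2.43 and Id2 at 1.58.

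Of 5 measured cytotoxic genes other than Nkg7, 1 was called, Gzmk, and of 3 measured chemokines other than Ccl5, 0 were. The 5 cytotoxic genes lay above 0 in both replicates, as 1270 of 2964 genes did in all, with a median log2 ratio of 0.80 against 0.05 over all genes tested. Ctsw, a protease of cytotoxic lymphocytes, stood at 408 against 198 CPM and 528 against 311 CPM. Fasl, the death ligand, stood at 58.7 against 29.8 CPM and 183 against 116 CPM. The 3 chemokines had a median of 1.02. Xcl1, which draws cross-presenting dendritic cells, was at 351 against 136 CPM and 276 against 170 CPM. A single cell held 342 of the 937 Xcl1 UMIs of the members in replicate 1 and 143 of 689 in replicate 2. Ccl1 and Ccl4 were higher as well, but their UMIs were held by few cells. One held 208 of the 295 Ccl1 UMIs in replicate 1 and 323 of 708 in replicate 2, and 507 of 685 and 83 of 187 for Ccl4.

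Genes of naive and recirculating T cells were lower in members. All 11 measured of them lay below 0 in both replicates, with a median of -0.67, where 695 of 2964 genes did so in all. Ccr7, the receptor that guides T cells to lymph nodes, stood at 26.6 against 125 CPM and at 37.6 against 134 CPM, a mean log2 ratio of -2.0 ± 0.28. Klf2, the factor that keeps T cells in circulation, stood at 196 against 331 CPM and at 178 against 330 CPM. Il7r, the interleukin 7 receptor of resting T cells, stood at 318 against 462 and 293 against 443 CPM, and Tcf7, a factor of naive and memory cells, at 148 against 211 and 186 against 275 CPM. Igfbp4, a gene of naive CD4 cells, was called lower, at 85.3 against 205 CPM and 14.8 against 150 CPM.

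Several other called genes belong to cells that are not T cells. Myl9 of smooth muscle stood at 103 against 207 CPM and at 0.400 against 82.1 CPM, Igfbp7 of vessels and fibroblasts at 251 against 535 and 4 against 108 CPM, and Lyz2 of myeloid cells at 18.3 against 178 and 25.2 against 69.6 CPM. With the contrast cells, but not the members, limited to those with a TCR beta chain and no iNKT chain, the log2 ratio differed in sign between the replicates, at 1.27 and -0.29 for Myl9, 1.22 and -0.21 for Lyz2 and 0.27 and -0.57 for Igfbp7. There Ccr7 stood at -2.44 and Igfbp4 at -1.68, the latter with -0.69 in replicate 1. The remaining genes called lower and named by the rule were Areg, a growth factor of tissue-repair lymphocytes, and Atp1b1, Cd81, Aldh2 and Tsc22d1, with means from -1.93 to -1.44. They stood at -1.80, -1.35, -1.11, -0.51 and -0.25 in the restricted contrast.

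**Figure D2:**
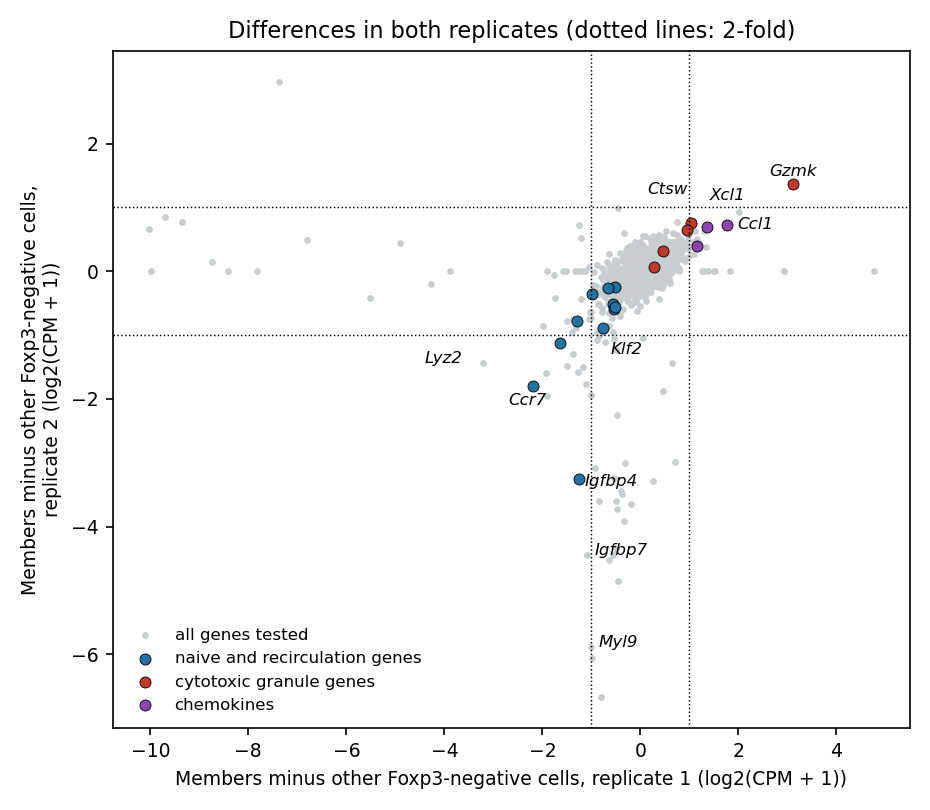
Each point is 1 of 2964 genes, with the log2 ratio of members to other Foxp3-negative cells in replicate 1 on the x axis and in replicate 2 on the y axis, and dotted lines at 2-fold. Gzmk lies past both lines at the upper right, and the 11 naive and recirculation genes lie below 0 on both axes.

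Over all genes tested, 1270 of 2964 lay above 0 in both replicates, with a median log2 ratio of 0.05. Of 10 measured factors linked to Th1 cells, 6 did so, with a median of 0.20. Id2, a factor of effector and innate-like lymphocytes, led them at 1297 against 663 and 880 against 591 CPM. Runx3, a partner of T-bet, stood at 125 against 57.4 and 123 against 78.5 CPM, a mean log2 ratio of 0.88 ± 0.34. Type I interferon-stimulated genes had a median of 0.45, with 12 of 14 above 0 in both, and interferon-gamma-inducible GTPases and antigen presentation genes one of 0.31, with 13 of 15. Ifi47, in both lists, stood at 445 against 297 and 406 against 327 CPM. Of 6 measured regulatory T cell genes all lay below 0 in both, with a median of -0.65: Ikzf2, the gene of Helios, stood at 62.1 against 178 and 96.8 against 166 CPM. Leaving out cells with an Il2ra or Ikzf2 UMI gave 26 called genes, 3 of them higher.

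Against the 419 and 709 Foxp3-negative cells with none of the 5 markers, 76 genes were called, 32 higher and 44 lower. Among those higher were Xcl1, Ccl4, Ctsw, Ccl1, Gzmk, Ly6c2, Fasl, Id2, Il2rb, Ikzf3, Hopx and Cd226. Those lower included the naive and recirculation genes Ccr7, Klf2, S1pr1, Igfbp4 and Rflnb. The largest falls were in Acta2, Tagln and Myl9, known mainly from smooth muscle, with means of -4.65, -4.45 and -4.31. A productive TRB was found in 74.0% and 61.6% of the cells with no marker. The part of RNA from other cell types in this contrast was not tested. Xcl1 stood at 351 CPM in members and 3.75 CPM in those cells of replicate 1, and with 276 and 8.10 CPM in replicate 2.

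Within the members, genes outside the rule were followed over the number of markers, which was 2, 3, 4 or 5 in 208, 299, 192 and 40 cells of replicate 1 and in 558, 466, 187 and 48 cells of replicate 2. Ctsw stood at 266, 436, 477 and 584 CPM from 2 to 5 markers in replicate 1, and at 482, 589, 523 and 476 CPM in replicate 2, where it had no such order. Id2 went from 946 CPM at 2 markers to 1656 CPM at 5 in replicate 1, and from 765 to 763 CPM in replicate 2, with 1017 CPM at 4. Ccr7 stood at 184 CPM with no marker, 96.8 with 1 and 64.6 with 2 in replicate 1, and at 231, 131 and 41.6 CPM in replicate 2. Cxcr3 was flat inside the members, at 455 CPM with 2 markers and 515 CPM with 5 in replicate 1, and at 446 and 469 CPM in replicate 2. Median depth was higher with more markers too, at 2915.5 UMIs with 2 and 3281.5 UMIs with 5 in replicate 1 and at 1646 and 1949 UMIs in replicate 2.

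The TCR was not used by the rule except for the iNKT chain. A clonotype was a TRBV segment with its nucleotide CDR3, the loop that meets antigen, in cells with exactly 1 productive beta chain (TRB), and a cell was expanded when 2 or more tagged and filtered cells of its replicate shared the clonotype. Of 634 such members of replicate 1, 214 were expanded, or 33.8% (30.1 to 37.6), against 8.03% (5.98 to 10.5) of the other Foxp3-negative cells. In replicate 2 the shares were 151 of 742, or 20.4% (17.5 to 23.4), and 12.4% (10.5 to 14.5). Without iNKT cells the other cells stood at 9.80% and 12%. The difference was 25.7 percentage points in replicate 1 and 7.96 in replicate 2, a mean of 16.8 ± 12.6 (SD, n = 2), and no test is given, since an exact permutation test over 2 pairs cannot go below a two-sided p of 0.5. In cells with at least 1000 genes it was 25.3 points in replicate 1 and -0.83 in replicate 2. Clonotype size was counted anew among those cells, which left 185 expanded members in replicate 1 and 33 in replicate 2. Whether depth or the loss of cells of the same clonotype moved the value was not tested.

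Cells with no marker were expanded in 6.73% and 9.64%, those with 1 marker in 14.4% and 14.6%, and Foxp3-positive cells in 12.6% and 12.1%. Of all pairs of members, 559 (0.279%) shared a clonotype in replicate 1 and 188 (0.0684%) in replicate 2, against 18 (0.0101%) and 92 (0.0146%) for the other cells. Chains were found unevenly: 80.2% of members had a productive TRA in replicate 1 and 49.7% in replicate 2.

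**Figure D3:**
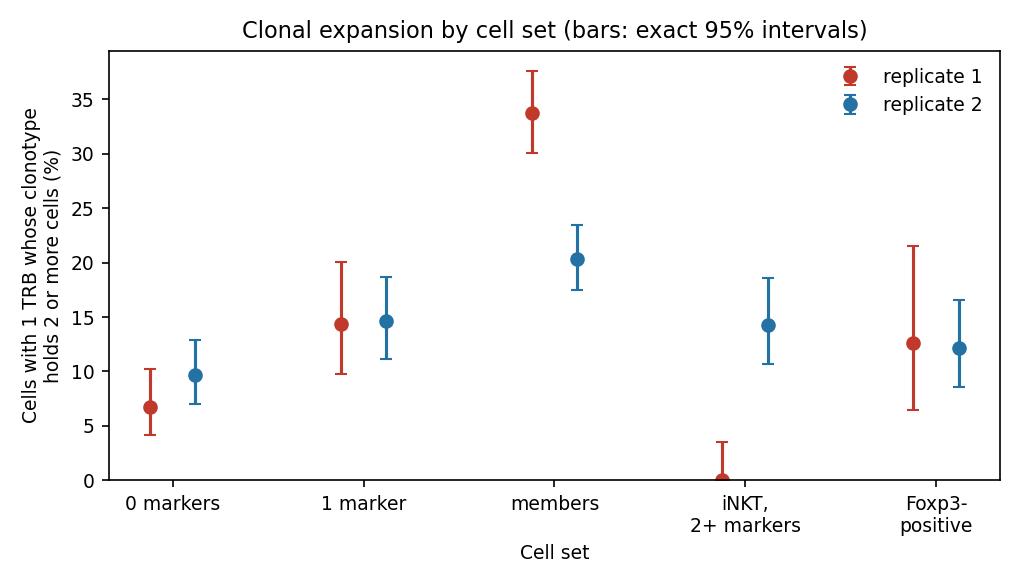
Points give the percentage of cells with exactly 1 TRB whose clonotype holds 2 or more cells, by cell set and replicate, and bars give exact 95% intervals. Members stand highest in both replicates, at 33.8% and 20.4%, and the iNKT cells of replicate 1 held 0 of 104.

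The largest member clonotypes are given by the nucleotide CDR3 of their beta chain, because they carry the expansion. Lower case marks bases that match the germline V segment from the 5′ end or J segment from the 3′ end (GENCODE M21), and capitals mark bases that match neither.

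Replicate 1, TRBV20 with TRBJ1-3, 17 members: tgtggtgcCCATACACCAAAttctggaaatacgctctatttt
Replicate 1, TRBV20 with TRBJ2-1, 15 members: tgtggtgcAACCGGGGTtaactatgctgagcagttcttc
Replicate 1, TRBV13-1 with TRBJ1-1, 13 members: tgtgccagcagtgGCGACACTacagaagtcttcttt
Replicate 1, TRBV16 with TRBJ2-4, 9 members: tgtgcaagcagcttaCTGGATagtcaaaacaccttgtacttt
Replicate 2, TRBV15 with TRBJ1-1, 12 members: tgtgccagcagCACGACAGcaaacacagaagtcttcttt
Replicate 2, TRBV13-3 with TRBJ2-5, 9 members: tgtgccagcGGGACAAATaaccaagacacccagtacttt

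These clonotypes consisted mostly of members. The TRBV20 and TRBJ1-3 clonotype had 18 cells in all, 17 of them members and 1 with a single marker, and the TRBV13-1 clonotype had 13 cells, all members. The TRBV15 clonotype of replicate 2 had 15 cells, of which 12 were members, 1 had a single marker and 2 were Foxp3-positive. A further large clonotype of replicate 1 used TRBV10 with TRBJ2-7 and had 14 members of 15 cells. The alpha chain was not used to define a clonotype. In the TRBV20 and TRBJ2-1 clonotype all 12 members with a TRA had the same one, of TRAV6N-7 and TRAJ39, and in the TRBV16 clonotype all 9 had 1 chain of TRAV4-4-DV10 and TRAJ52.

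Replicate 1, TRAV6N-7 with TRAJ39, 12 of 12 members: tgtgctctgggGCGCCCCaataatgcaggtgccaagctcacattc
Replicate 1, TRAV4-4-DV10 with TRAJ52, 9 of 9 members: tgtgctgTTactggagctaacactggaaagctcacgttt

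In GRCm38, TRBV20 lies at chr6:41188273-41188977, TRBV16 at chr6:41151740-41152230, TRBV15 at chr6:41141188-41141658, TRBV13-3 at chr6:41130147-41130585 and TRBV13-1 at chr6:41116007-41116468, all on the plus strand of the beta locus. The alpha segments TRAV6N-7 at chr14:53318798-53319284 and TRAV4-4-DV10 at chr14:53683647-53684177 lie in the alpha locus. The remaining large clonotypes of replicate 2 had 5, 5 and 4 members and used TRBV13-2 with TRBJ2-4, TRBV19 with TRBJ1-1 and TRBV13-2 with TRBJ2-7. The first and last carry a joint TRBV12-2 and TRBV13-2 assignment, and the first had 13 cells in all, of which 5 were members, 2 were Foxp3-positive and 6 were iNKT cells with 2 or more markers.

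Members shared clonotypes with cells outside the gate. In replicate 1, 63 of 634 members (9.94%) shared one with a Foxp3-negative cell of 1 marker, 21 (3.31%) with a cell of none, and 9 (1.42%, 0.651 to 2.68) with a Foxp3-positive cell. In replicate 2 these were 61 of 742 (8.22%), 19 (2.56%) and 31 (4.18%, 2.86 to 5.88). No nucleotide clonotype was common to the 492 of replicate 1 and the 667 of replicate 2. When the CDR3 was translated, 2 were common, each in 1 member of each replicate, and their nucleotides differed. These sets are shown because the same protein loop was encoded by other bases in the other replicate.

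TRBV31 with TRBJ2-7, replicate 1: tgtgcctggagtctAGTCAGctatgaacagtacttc
TRBV31 with TRBJ2-7, replicate 2: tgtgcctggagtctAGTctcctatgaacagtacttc
TRBV3 with TRBJ2-3, replicate 1: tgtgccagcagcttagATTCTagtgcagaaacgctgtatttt
TRBV3 with TRBJ2-3, replicate 2: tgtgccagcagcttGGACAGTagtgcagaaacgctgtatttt

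The rule removes an iNKT cell only if its alpha chain was read, so members without a TRA can hold such cells. Shown for reference is the most common chain among the iNKT cells with 2 or more markers, which 42 of 116 cells with such a chain carried in replicate 1 and 133 of 377 in replicate 2.

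TRAV11 with TRAJ18: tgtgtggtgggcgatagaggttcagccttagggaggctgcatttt

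The beta segments that pair with it in mice, the TRBV13 family, TRBV29 and TRBV1, made up 94.2% and 93.7% of iNKT clonotypes. They made up 32.9% and 36.7% of clonotypes in members with a TRA. In members without one they made up 49.3% (37.4 to 61.3) and 67.9% (61.3 to 74.0), and in Foxp3-negative cells that were neither members nor iNKT cells 30.8% and 33.7%. Zbtb16 stood at 1.37 and 14.6 CPM in members with a TRA, at 12.6 and 26.6 CPM in those without, and at 54.4 and 55.8 CPM in iNKT cells. In replicate 2, where 633 members had no TRA, 20 members of 15 clonotypes shared their TRB with an iNKT cell, and in replicate 1 none did. The part of unread iNKT chains in the results was not tested beyond values with TRA-bearing members alone, which are given for some genes. Against the other Foxp3-negative cells, TRA-bearing members gave 18 called genes of 2948, 2 of them higher. Of the 14 genes called lower with all members, 10 were kept.

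Members were compared with the 120 and 377 iNKT cells that also had 2 or more of the 5 markers, a comparison the marker rule did not make. The iNKT cells were deeper, with a median of 3687.5 and 1966 UMIs against 3001 and 1701 in members. A productive TRA was found in 99.2% and 100% of them, against 80.2% and 49.7% of members. Of 9431 genes tested, 218 (2.31%) differed at an adjusted p under 0.05 by edgeR's quasi-likelihood test with the replicate as a block and Benjamini-Hochberg adjustment. They were 112 (1.19%) higher in members and 106 (1.12%) lower. Without the block edgeR called 0 genes, with 259 at an unadjusted p under 0.05. With TRA-bearing members alone 383 differed, and in cells thinned to 1000 UMIs 75.

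Gzmk rose, with log2 2.82 ± 0.26 (SE, adjusted p = 2.17e-06 by edgeR). In the tested sums members had 223 CPM and iNKT cells 17.6 CPM in replicate 1, and 82.7 and 19.0 CPM in replicate 2. Other genes that rose are named after their values were seen. Cd4 was higher by log2 1.43 ± 0.15, at 212 against 62.4 and 204 against 85.1 CPM. Tnfrsf4, the gene of the costimulatory receptor OX40, was higher by 1.82 ± 0.18, and Tigit, an inhibitory receptor, by 1.87 ± 0.20. Ccr8, a receptor of skin and tissue T cells, was higher by 1.86 ± 0.31, and Itga4, the alpha chain of the integrin VLA-4, by 1.47 ± 0.14. For each of these the members stood above the iNKT cells in both replicates.

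Of 15 tested naive and recirculation genes, 4 rose and 1 fell, with a median of 0.26 against 0.00 over all genes. Il7r was at 319 against 72.2 CPM and 294 against 120 CPM, Klf2 at 197 against 85.8 and 178 against 63.8 CPM, and S1pr1 and Tcf7 rose too. Satb1, a chromatin organiser, fell by 1.43. Against iNKT cells the members thus stood higher in Il7r and Klf2, and against the other Foxp3-negative cells they stood lower. Of 17 tested coinhibitory and costimulatory receptors, 4 rose, Tnfrsf4, Tigit, Cd5 and Pdcd1, and Tnfrsf18 fell. Of 19 tested TCR signalling genes Cd5 and Lat rose, and Egr3 and Zap70 fell.

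Natural killer receptor genes fell in members: 6 of 11 tested passed, all lower, and the median was -1.16. Klrk1, the gene of the activating receptor NKG2D, stood at 33.0 against 166 CPM and at 108 against 187 CPM, a log2 of -1.37 ± 0.23 (adjusted p = 0.00159 by edgeR). Klrb1c, the gene of NK1.1, fell by 1.41, and Klrd1, the CD94 gene, by 1.51. By DESeq2, a second tool, with the replicate as a block, Klrk1 stood at -1.58 and did not pass (adjusted p = 0.946). Klrd1 did not pass there either, and Klrb1c did (adjusted p = 0.0423 by DESeq2). Of the innate-like list, 5 of 11 tested genes fell, among them Zbtb16 by 2.25 and Il2rb by 0.57, and Slamf1 rose. Il4, which iNKT cells store as transcript, fell by 1.98, at 11.3 against 68.3 and 16.1 against 42.6 CPM. Xcl1 fell by 0.90, at 352 against 665 and 277 against 493 CPM. Ly6c2, Ly6c1, Plac8, Arl4d, Zcchc18 and Gm19585 complete the 10 lowest of the named genes, with falls from 1.78 for Ly6c2 to 1.38 for Gm19585, and Ly6c1 and Ly6c2 are near-identical copies between which reads can be split.

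The Th1 pair itself was not separated: the log2 difference was -0.17 ± 0.13 for Tbx21 (adjusted p = 0.769) and -0.23 ± 0.17 for Ifng (adjusted p = 0.751 by edgeR), and Cxcr3 stood at -0.05 ± 0.09. A p that misses the threshold does not show equal levels, and the cells of both sets were selected on Tbx21 and Ifng. Of the other selection genes, Ccl5 rose and Cxcr6 and Nkg7 fell, each at an adjusted p under 0.05 by edgeR. The cells of both sets were selected on these genes too, so their differences are a description and not a test result. Il12rb2 fell by 1.14 and Id2 by 0.48, while Runx3 rose by 0.75 and Il18r1, the interleukin 18 receptor, by 1.07.

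The rule for named genes also gave Nupr1, Fbln1, Serping1, Gsn, Dcn, Gm35037, Ccl6, Mgp and Acta2, higher by log2 3.54 to 2.06. Apart from Gm35037 these are known mainly from fibroblasts, smooth muscle or myeloid cells, and most of their UMIs came from replicate 1, with 1270 Dcn UMIs in members there and 9 in replicate 2. With TRA-bearing members alone Ccl6 reversed to -0.48, and Nupr1 stood at 1.54 and did not pass (adjusted p = 0.128 by edgeR). Among the markers of other cell types, the B-cell gene Cd79a passed, with 24 and 37 UMIs in members and 0 in iNKT cells. The CD8 gene Cd8b1 was higher by 3.17 ± 0.77, with 62 UMIs in members against 0 in iNKT cells of replicate 1 and 20 against 2 in replicate 2, and did not pass without the richest cell (adjusted p = 0.0568 by edgeR). The red cell genes Hbb-bs and Hba-a2 fell by 2.63 and 2.46, and the fibroblast gene Col1a1 by 1.19. The part of such RNA in the differences was not tested. Without the richest cell of each gene in each sum, 159 genes differed, and Gzmk kept 2.94, Cd4 1.42, Il7r 1.60 and Klrk1 -1.41. In cells thinned to 1000 UMIs Ccr8, S1pr1, Tcf7, Klrd1, Il4, Runx3, Il18r1, Pdcd1 and Tnfrsf18 did not pass, and Runx3 did not with at least 1000 genes either. Nupr1, Dcn, Acta2 and Zcchc18 also did not pass in thinned cells, where Fbln1, Serping1, Ccl6 and Mgp fell below the count filter. Of the genes named by the rule, Klrk1, Klrd1, Ly6c2, Gsn, Gm35037, Ccl6 and Mgp did not pass by DESeq2, and the others did.

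**Figure D4:**
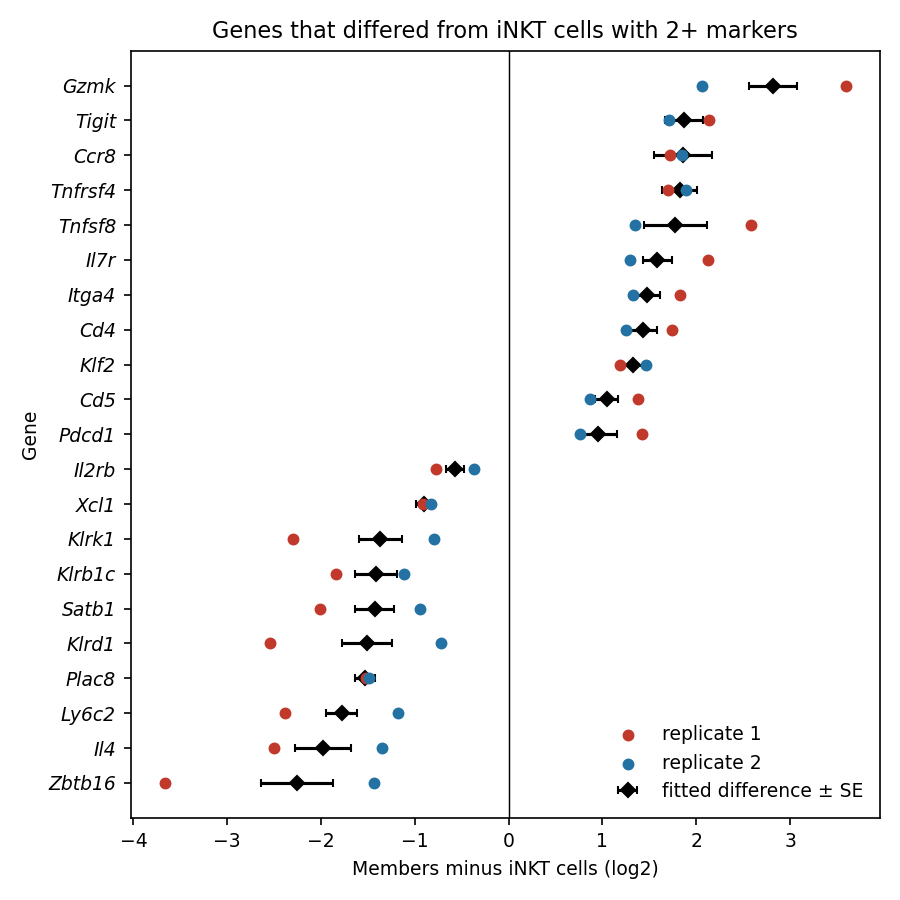
The log2 difference of members minus iNKT cells with 2 or more markers is shown for 21 genes chosen after their values were seen, with the edgeR estimate and its SE in black and each replicate in colour. Each gene has the same sign in both replicates, from Gzmk at 2.82 to Zbtb16 at -2.25.

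Within the members, expanded clonotypes (214 and 151 cells) were compared with single-cell clonotypes (420 and 591 cells). Of 8191 genes tested 65 (0.794%) differed by edgeR with the replicate as a block, 55 (0.671%) higher in expanded cells and 10 (0.122%) lower. Of these, 21 had the same sign in both replicates and averaged 5 or more in log2 CPM, 16 higher and 5 lower. The cell with 8196 UMIs of gut epithelial genes was 1 of the expanded cells of replicate 1, which held 8502 such UMIs in all. Without the block edgeR called 0 genes, with 101 at an unadjusted p under 0.05. When a clonotype needed the same TRA and TRB 3 genes differed, with TRA-bearing members 20, in thinned cells 5, and without the richest cell of each gene 37. Of the genes named below, Klrg1, Gzmk, Rgs1, Ifng, Il7r, Klrk1, Ly6c2 and Slfn5 passed neither in thinned cells nor with clonotypes by TRA and TRB. The same held for Gem, Ighm, Igfbp7 and Clec3b. Median depth was 2891.5 UMIs in expanded against 3139 in single cells of replicate 1, and 1685 against 1833 UMIs in replicate 2.

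Klrg1, a receptor of terminally differentiated effector cells, stood at 54.7 CPM in expanded and 21.5 CPM in single cells of replicate 1, and at 111 against 12.2 CPM in replicate 2. It was found in 11.7% against 5.24% and in 13.9% against 2.37% of cells. Its log2 difference was 2.09 ± 0.34 (adjusted p = 0.00093 by edgeR), 2.0 with TRA-bearing members and 2.19 without the richest cell. It was 2.42 in thinned cells (adjusted p = 0.211) and 1.82 with clonotypes by TRA and TRB (adjusted p = 0.390 by edgeR). Gzmk rose by 0.88 ± 0.16, at 345 against 199 CPM and 135 against 61.0 CPM, and was found in 48.6% against 28.3% and 15.9% against 10.3% of cells. It kept 0.98 both with TRA-bearing members and without the richest cell, and stood at 0.67 in thinned cells (adjusted p = 0.525) and 1.0 with clonotypes by TRA and TRB (adjusted p = 0.114 by edgeR). Rgs1, which restrains chemokine signalling and is high in tissue T cells, rose by 0.54 ± 0.11, and by 0.36 with at least 1000 genes, where it did not pass (adjusted p = 0.814 by edgeR). Ccl5 was higher by 0.73, at 4886 against 2802 and 2616 against 1671 CPM, and belongs to the selection genes.

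Other differences rested in part on single cells. Ccl4, a chemokine released on activation, was higher by 4.03 ± 0.22, but 98 of 147 expanded UMIs in replicate 1 and 83 of 87 in replicate 2 lay in 1 cell each. Without those cells it was 2.34, and it was 1.91 with expansion counted over members only and 1.94 with at least 1000 genes, passing in each. Ifng belongs to the selection genes as Ccl5 does, so its values here are a description. Ifng was higher by 1.29 ± 0.22, at 112 against 84.7 and 585 against 153 CPM, and 100 of its 169 expanded UMIs in replicate 2 lay in 1 cell. The share of cells with an Ifng UMI was 26.2% against 22.6% and 28.5% against 22.5%, and without the richest cells the log2 difference was 0.64 (adjusted p = 0.0414 by edgeR). It was 0.24 with expansion counted over members only (adjusted p = 0.918) and 0.15 with at least 1000 genes (adjusted p = 0.999 by edgeR). In thinned cells it was 1.19 (adjusted p = 0.234), and with clonotypes by TRA and TRB 1.67 (adjusted p = 0.250 by edgeR). That cell of replicate 2 had 2952 UMIs in all, of which 323 were Ccl1, 143 Xcl1, 100 Ifng, 83 Ccl4, 30 Ccl3, 12 Tnf and 9 Il2, and it had no Ccl5 UMI and belonged to a clonotype of 2 cells. Ccl1 without the richest cell did not pass, at 1.11 (adjusted p = 0.0747 by edgeR), and with expansion counted over members only it stood at -0.90.

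Of 19 tested immediate early genes, which cell stress and activation induce, 4 passed, all higher: Atf3, Egr1, Jun and Fos. Atf3 stood at 313 against 109 CPM in replicate 1 and at 3.46 against 2.44 CPM in replicate 2. The values of replicate 2 come from 1 UMI in expanded and 3 UMIs in single cells, so the sign there rests on 1 UMI. Egr1 stood at 349 against 137 and 90.0 against 89.4 CPM, and in replicate 2 the log2 difference was -0.01 for Jun and -0.02 for Fos. With TRA-bearing members, in thinned cells and with clonotypes by TRA and TRB none of the 4 passed. Cdkn1a and Gem, a cell-cycle inhibitor and a small GTPase, were higher by 1.17 and 1.15 and did not pass with TRA-bearing members. Dcn, Igfbp7 and Clec3b, genes of fibroblasts, were higher by 1.46, 1.11 and 1.08, with 642 Dcn UMIs in expanded cells of replicate 1 and 1 in replicate 2. In replicate 2 Clec3b had 1 UMI in expanded and 1 in single cells. With TRA-bearing members Igfbp7 stood at 0.46 (adjusted p = 0.703) and Clec3b at 0.76 (adjusted p = 0.360 by edgeR). Dcn kept 1.51 there (adjusted p = 2.93e-05) and 1.47 with clonotypes by TRA and TRB (adjusted p = 0.0386 by edgeR). With expansion counted over members only Dcn stood at 0.13 and did not pass (adjusted p = 0.971 by edgeR).

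The 5 genes of the named set that fell were Klrk1, Slfn5, Ly6c2, Ighm and Il7r. Il7r stood at 206 against 354 and 187 against 302 CPM, a log2 of -0.75 ± 0.14 (adjusted p = 0.00403 by edgeR), and -0.70 with TRA-bearing members (adjusted p = 0.07). Klrk1 fell by 1.85, at 16.8 against 39.1 and 20.8 against 127 CPM. With TRA-bearing members it stood at -1.22 and did not pass (adjusted p = 0.525), and Ly6c2 stood at -0.66 (adjusted p = 0.0443). Slfn5, an interferon-stimulated gene, fell by 1.21 and kept -1.49 with TRA-bearing members (adjusted p = 0.0254). Ighm, an immunoglobulin gene of B cells, fell by 0.83 and did not pass with TRA-bearing members. Tbx21, Cxcr3 and Klf2 did not pass, at -0.06 ± 0.17, -0.08 ± 0.12 and 0.09 ± 0.20, and Tbx21 is a selection gene. None of the cell-cycle genes, 12 tested, passed, with a median of -0.17.

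**Figure D5:**
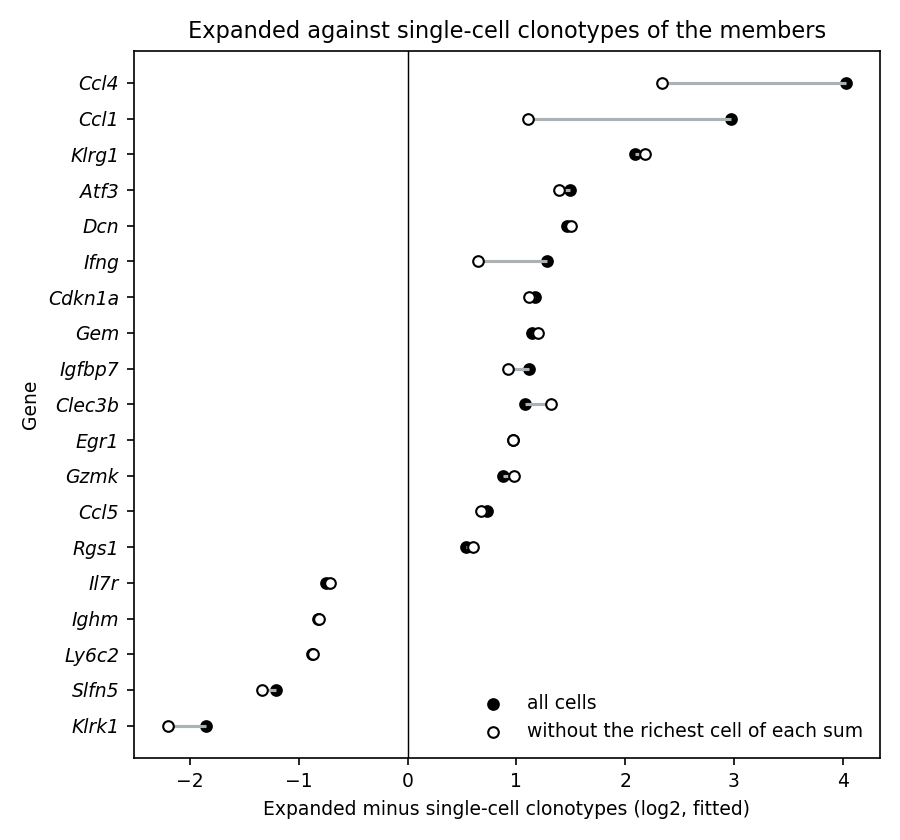
Filled points give the fitted log2 difference of expanded minus single-cell clonotypes for 19 genes, and open points the same without the cell richest in that gene in each sum. Ccl4 moves from 4.03 to 2.34, Ccl1 from 2.98 to 1.11 and Ifng from 1.29 to 0.64, while Klrg1 stays near 2.09 and Gzmk near 0.88.

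T-bet binds T-box sites, and the half-site GGTGTGA was searched on either strand in the 250 bases before the start of Nkg7, Cxcr6, Tbx21, Ifng and Gzmk (RefSeq, GRCm38.p6). Ccl5 has no entry. The half-site occurs in 3.33% of 32851 promoters. Nkg7 and Gzmk hold it, at chr7:43436888-43437137 on the plus strand and chr13:113180966-113181215 on the minus strand, and Cxcr6, Tbx21 and Ifng do not in this window. Both are shown because Nkg7 chose the members and Gzmk was the 1 gene outside the rule called higher, with the motif in capitals. A match is a description and no evidence of binding.

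Nkg7: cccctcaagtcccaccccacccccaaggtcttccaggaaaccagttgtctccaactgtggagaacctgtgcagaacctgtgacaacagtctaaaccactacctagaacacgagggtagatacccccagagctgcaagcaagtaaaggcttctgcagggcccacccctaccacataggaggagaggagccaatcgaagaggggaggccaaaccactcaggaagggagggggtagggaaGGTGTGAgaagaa
Gzmk: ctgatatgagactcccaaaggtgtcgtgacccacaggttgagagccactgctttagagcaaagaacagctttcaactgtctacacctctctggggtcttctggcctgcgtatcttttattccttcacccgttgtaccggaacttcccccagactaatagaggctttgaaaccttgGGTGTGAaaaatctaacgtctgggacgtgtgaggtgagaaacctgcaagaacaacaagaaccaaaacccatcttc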

How the data were processed

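For each replicate the authors deposited a matrix of raw UMI counts, written by Cell Ranger 4.0.0 for replicate 1 and 6.0.0 for replicate 2, per the file headers. The submitters' processing notes name Cell Ranger 6.1.0, Seurat and mm10. The deposited hashtag tables hold counts per tag and barcode, and the deposited TCR tables list assembled contigs, of which productive ones were used. The extraction protocol in the labels names a 3' kit and the series design a 5' kit with TCR enrichment. The label of replicate 1 gives hashtag 7 a sequence that its table does not hold, and the name decided.

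No doublet caller was used: the hashtag margin of 5 and, for clonotypes, exactly 1 TRB limit doublets, and 5.37% and 9.07% of members with a TRB had 2 or more. Among members with a margin from 5 to under 20 these shares were 26.3% and 15.4%, and at 20 or more 4.11% and 7.42%. The contrast with other cells and the iNKT test set no limit on the number of TRB. Raw counts were summed per cell set and replicate. Sums were scaled to CPM of all UMIs, or tested with edgeR 4.0.16 (quasi-likelihood, TMM, filterByExpr, Benjamini-Hochberg, R 4.3.3) without TCR genes and Foxp3, whose CPM then have slightly smaller totals. The SE is the log2 difference divided by the square root of F. Both sums of a replicate come from 1 library, so the replicate number pairs them: deviations from the group means correlated with r = 0.76 over 9431 genes (iNKT test) and r = 0.73 over 8191 (expanded test), where genes are not independent. With 1 sum per set and replicate, the block takes up the difference between the 2 libraries. The p-values then rest on how the difference between sets varies between 2 replicates, with information on spread shared over genes. On simulated data edgeR recovered 64.9% of 94 genes changed 2-fold and 100% of 106 changed 4-fold in the iNKT test, of 9136 genes tested, and 55.8% of 95 and 100% of 105 in the expanded test, of 7825. The simulation gave all genes the same dispersion and a replicate shift of the same size, and changed only genes with higher counts. It held no single cells rich in a gene, so its rates may not carry over to these data.

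Members and lists were chosen with earlier results of these data known. Named genes were the 15 highest and 10 lowest called in the contrast with other cells, and in each test the 10 highest and 10 lowest that passed (adjusted p under 0.05), had 1 sign in either replicate and averaged 5 or more in log2 CPM. Up to 4 genes of highest mean CPM per list were added as examples, and other list genes were named after their values were seen. The 5 largest member clonotypes per replicate were named. Alternatives varied the margin, marker number, gene minimum, contrast cells, depth, pseudocount, fold, filter, block, tool (DESeq2 1.42.0) and clonotype definition. Hippocampal libraries were not used here.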

Additional observations from a re-analysis of the deposited data

How the results depend on the processing

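The share of members (45.3%) was 29.1% with at least 3 markers, 52.3% with at least 1000 genes and 33.6% after thinning, and 42.5% to 48.0% with 1 replicate left out. The 15 genes called against other cells became 76 against cells with no marker (32 higher), 34 against TRB-bearing cells without iNKT cells (19 higher), 36 at a mean CPM of at least 20 (3 higher), 51 at 1.5-fold (13 higher), 26 without Il2ra or Ikzf2 UMIs (3 higher) and 43 to 74 with 1 replicate left out, and at 3 markers 5 of 12 were higher. In the contrast with TRB-bearing cells Myl9 turned to 0.49 and Lyz2 to 0.50. Of the single genes in this contrast 1022 values moved by less than the SD between replicates and 236 by more. The difference in expanded share (16.8 points) ranged from 7.96 to 25.7 with 1 replicate left out.

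The iNKT test (218 genes) gave 0 without the replicate block, 53 by DESeq2 (21 higher), 384 at a margin of 2, 383 with TRA-bearing members, 350 without a filter (221 higher) and 75 in thinned cells. Ccl6 turned to -0.48 with TRA-bearing members. The expanded test (65 genes) gave 0 without the replicate block, 18 by DESeq2 (3 higher), 3 with clonotypes by TRA and TRB, 145 at a margin of 2, 123 at a margin of 20, 174 without a filter (100 higher), 5 in thinned cells and, among alternatives added after seeing the data, 20 with TRA-bearing members and 37 without the richest cell. DESeq2 gave no adjusted p to 3657 and 7781 genes. The cause of these changes was not tested. Of the named genes, 36 of 253 values in the iNKT test and 62 of 211 in the expanded test kept their direction and no longer passed. With 1 replicate left out the tests leave no residual degrees of freedom, so each replicate's log2 difference was taken as a value with no test. The depth of replicate 2, a median of 1701 UMIs per member, limits what can be seen of low genes such as Tbx21.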

Other observations

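Further lists in the test of members against iNKT cells were Th2 genes, of which 5 were tested, with Ccr8 higher and Il4 and Areg lower, and the 19 type I interferon-stimulated genes, of which Ifi27l2a and Ifi203 rose. Of 12 cell-cycle genes, 17 interferon-gamma-inducible and antigen presentation genes and 10 glycolysis genes, none passed in that test.

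Gzmk was found in 36.3% and 13.3% of members with a TRA and in 18.5% and 9.79% of those without. Klrk1 was found in 3.20% and 11% of members with a TRA, in 11.6% and 15% of those without, and in 25.0% and 23.9% of iNKT cells with 2 or more markers.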
